A study of Homo sapiens with 4 samples.

Results

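PI3 kinase subunits and AKT kinases were described in HaCaT keratinocytes in which the long noncoding RNA lnc-DC had been silenced. The genes were chosen by name in the deposited table: the regulatory subunit genes PIK3R1, PIK3R2 and PIK3R3, the catalytic subunit genes PIK3CA, PIK3CB and PIK3CD, the kinase genes AKT1 and AKT2, and AC007192, a read-through gene model that overlaps PIK3R2. These 9 names matched 10 of 58825 rows, because AC007192 also names an antisense transcript of MAST3 that was listed at 0 in all 4 libraries and is not considered further. The choice was made with the values of PIK3R2 and AC007192 in knockdown and control libraries known, so the differences of all members are given as a description, without a test.

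The study compared 2 libraries of cells given a lentivirus for lnc-DC knockdown (treatment shlnc-DC) with 2 libraries of cells given a control lentivirus (treatment shNC). HaCaT is an established human keratinocyte line that can be driven to differentiate by calcium. Both groups were grown in MEPICF500 medium with 1.2 mM calcium, and the aim stated for the series was the signature of differentiating cells with lnc-DC silenced. The sample titles call the replicates biological. Whether 1 hairpin or several were used, and whether replicates came from separate infections, is not given in the sources used here. The spread between replicates may therefore not cover that between infections.

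Class I PI3 kinase is a pair of proteins, a catalytic subunit that phosphorylates a membrane lipid and a regulatory subunit that holds it inactive until it docks on a phosphorylated receptor or adaptor. The lipid product brings AKT to the membrane, where it is activated and then phosphorylates regulators of growth, survival and metabolism. In keratinocytes this route runs downstream of the EGF and insulin-like growth factor receptors and of cell adhesion, and takes part in survival during differentiation.

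WFDC21P, the gene of lnc-DC, had 0.09 and 0.29 FPKM (fragments counted relative to gene length and library size) in knockdown libraries, against 2.15 and 2.76 FPKM in control libraries. Between 22351 and 22780 genes were above 0 in a library, and the table gives FPKM only, so the depth behind a value is unknown. Mitochondrial transcripts took 28.1% and 26.8% of summed FPKM in knockdown libraries, against 41.2% and 41.9% in control libraries. Of 10 keratinocyte markers 8 reached 1 FPKM, with the basal keratin gene KRT14 at 0.35 FPKM or less and KRT17 at 0.85 FPKM or less. Their summed level was 413.6 and 443.4 FPKM in knockdown libraries, against 761.6 and 799.2 FPKM in control libraries, and the part of these shifts in the results that follow was not tested. Fibroblast and melanocyte markers reached 1 FPKM for 0 of 7 and 0 of 6 genes, leukocyte markers for CD14 alone and endothelial markers for CDH5 alone.

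PIK3R2 codes for the beta regulatory subunit of class I PI3 kinase. GENCODE 29 places the gene (ENSG00000105647) on the plus strand of chromosome 19 (GRCh38), from 18153118 to 18170540. AC007192.1 (ENSG00000268173) lies on the same strand from 18153158 to 18178117 and is described in the deposited table as a read-through between PIK3R2 and IFI30. IFI30, the gene of a lysosomal thiol reductase, follows 2621 bases after PIK3R2 and ends at 18178117, where the read-through model ends too. The single read-through transcript of 5142 bases contains 3947 of the 4033 bases of the main PIK3R2 transcript and all 15 of its introns. Of the read-through exons, 76.8% of bases lie in exons of PIK3R2, 19.4% in exons of IFI30 and 198 bases in neither. The 2 models have the same coding sequence of 2184 bases in 15 identical segments and the same stop codon at 18169292 to 18169294. The annotation classes the read-through transcript as a target of nonsense-mediated decay, the pathway that degrades mRNAs with exon junctions downstream of the stop codon, and the transcript has 9 such junctions.

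**Figure D1:**
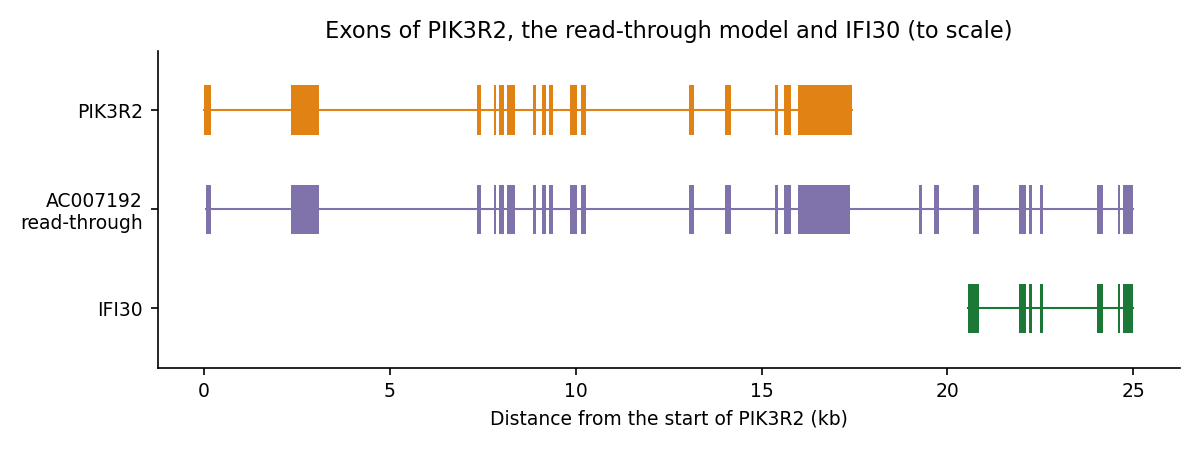
Exons (boxes) and introns (lines) of the main PIK3R2 transcript, the AC007192 read-through and the main IFI30 transcript, drawn to scale by distance in kb from the start of PIK3R2. The read-through holds all 15 introns of PIK3R2 and continues through the exons of IFI30.

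A place where the models part is shown, because most exonic bases of PIK3R2 lie in both. In the read-through, exon 16 is spliced to exon 17 after base 18170494, whereas the PIK3R2 transcript runs on through the same exon. The first line joins chr19:18170480-18170494 to chr19:18172357-18172371 and the second is chr19:18170480-18170509, both on the plus strand of GRCh38 and read from GENCODE 29 transcripts. Small letters are the 15 bases common to both models and capitals the 15 bases that follow in each.
Read-through AC007192 junction: ggcaggttttgtacgGGCTGGTGCCTGGTA
PIK3R2 without the junction: ggcaggttttgtacgGTACGTTGTTATTGA
Of the 24 introns of the read-through, 3 are in no transcript of PIK3R2 or IFI30, and 86 bases of the main PIK3R2 transcript are not in the read-through.

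RefSeq (GRCh38.p14) starts PIK3R2 at 18153163, and the window from 250 bases before to 50 bases after its start, chr19:18152913-18153212 on the plus strand, is shown because both models begin within it. Capitals mark matches to GGGCGG or its reverse complement CCGCCC, the GC box.
PIK3R2 promoter: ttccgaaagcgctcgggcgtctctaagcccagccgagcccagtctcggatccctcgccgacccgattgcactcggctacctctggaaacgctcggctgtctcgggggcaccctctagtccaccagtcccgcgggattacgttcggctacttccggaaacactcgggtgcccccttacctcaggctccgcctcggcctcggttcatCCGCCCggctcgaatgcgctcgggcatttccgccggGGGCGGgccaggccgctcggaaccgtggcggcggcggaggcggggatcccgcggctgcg
This window had a GC content of 70.0%, against a median of 58.7% over 35116 promoters of the same length. It held 2 GC boxes, and 45.0% of promoters held a GC box on either strand. It held no TATA box (TATAAA, 11.5% of promoters), no E box (CACGTG, 7.26%) and no STAT element (TTCNNNGAA, 7.66%). A FOXO element (GTAAACA, 3.42%) and a CCAAT box (CCAAT, 34.6%) were also without a match. All motifs were sought on both strands, and the GC boxes did not overlap each other.

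PIK3R2 stood at 16.59 and 12.76 FPKM in knockdown libraries, against 0.63 and 0.43 FPKM in control libraries. Both knockdown libraries lay far above both control libraries, with a ratio of means of 27.7. AC007192 stood at 0.03 and 0.01 FPKM in knockdown libraries, against 7.86 and 8.05 FPKM in control libraries, so the read-through was near 0 where PIK3R2 was high. PIK3R2 differed by 3.35 on the log2(FPKM + 1) scale, the highest value among the 12411 genes tested, which averaged 1 FPKM or more in either group, and AC007192 by -3.13, the third lowest. This scale understates the difference of genes at low levels, and the authors' deposited table lists log2 ratios of 4.79 for PIK3R2 and -8.63 for AC007192. The ratio for AC007192 rests on knockdown values near 0 given with 2 decimals, so its size is uncertain, and with 0.1 added the difference was -6.07. PIK3R2 and AC007192 each reached the minimum of 1 FPKM through 1 group only, so a difference was built into the selection of each. With values rescaled to genes outside the mitochondrial genome PIK3R2 differed by 3.32 on the same scale. In RNA from whole cultures, fewer cells that express a gene and less RNA per cell cannot be told apart.

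Within the locus the higher PIK3R2 stood beside a lower AC007192. PIK3R2 made up 99.8% and 99.9% of the summed FPKM of the pair in knockdown libraries, against 7.42% and 5.07% in control libraries. The sum was 16.62 and 12.77 FPKM in knockdown libraries, against 8.49 and 8.48 FPKM in control libraries. Knockdown libraries remained above control libraries, but the ratio of means was 1.73, in place of 27.7 for PIK3R2 alone. Since FPKM divides by length and the read-through is the longer model, the sum was also weighted by the length of the longest transcript of each gene. The weighted sum, in FPKM times kb, was 67.1 and 51.5 in knockdown libraries, against 43.0 and 43.1 in control libraries, a ratio of 1.38. The ratio was 1.20 without knockdown replicate 1 and 1.56 without knockdown replicate 2, and weighting by all exonic bases gave 1.54. The replicates of the knockdown differed more than those of the control, so the size of this remainder rests on which knockdown library is taken.

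**Figure D2:**
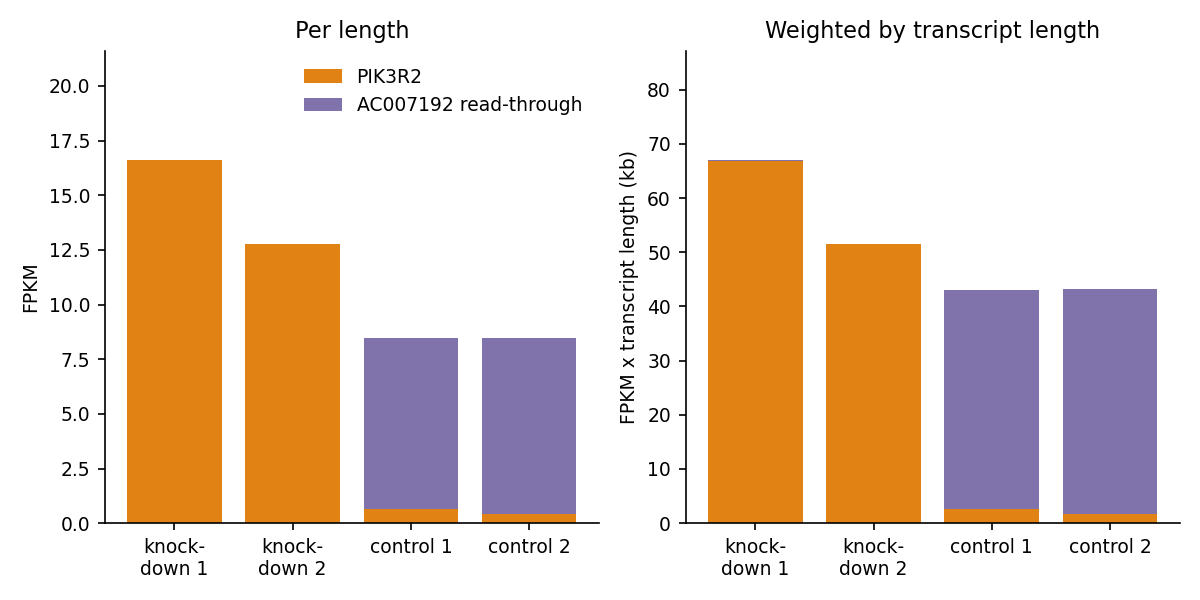
PIK3R2 and AC007192 stacked in each library, in FPKM (left) and in FPKM times the length of the longest transcript in kb (right). The bars are almost all PIK3R2 in the knockdown libraries and almost all read-through in the control libraries, with summed heights of 16.62 and 12.77 FPKM in knockdown against 8.49 and 8.48 FPKM in control.

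IFI30, whose exons the read-through also covers, had 39.21 and 39.04 FPKM in knockdown libraries, against 34.80 and 36.77 FPKM in control libraries. The groups did not overlap and the ratio was 1.09. With IFI30 added to the length-weighted sum, the locus stood at 150.0 and 134.1 FPKM times kb in knockdown libraries, against 116.6 and 120.9 in control libraries, a ratio of 1.20. The table gives 1 value per gene, so how reads of the common exons were divided between PIK3R2 and AC007192 cannot be told from it and was not tested. The 8 transcripts listed for PIK3R2 and the 1 for AC007192 are those of GENCODE 29.

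Among 526 same-strand pairs of genes with shared exons in which both genes reached the minimum level, 110 had a gene past 1 in size on the log2(FPKM + 1) scale. In 4 pairs the genes passed 1 in opposite directions, and the PIK3R2 pair had the largest opposed difference of these. It was the only one past 2, and 10 pairs passed 1 when 0.1 was added in place of 1. PCDHGC3, a protocadherin gene of cell contacts, stood at 7.65 and 8.73 FPKM in knockdown libraries against 1.86 and 3.03 FPKM in control libraries, while its overlapping partner PCDHGB5 stood at 2.41 and 0.41 FPKM in knockdown libraries against 3.13 and 3.89 FPKM in control libraries. ZC3H11A, an mRNA export factor, stood at 17.41 and 7.27 FPKM in knockdown libraries against 1.64 and 9.77 FPKM in control libraries, opposite to ZBED6, which lies within it. There the groups overlapped, as they did for CDC42EP2, the partner of AP000944, and the genes of each of these pairs also stood opposed between replicates of the same group. The PIK3R2 pair was alike in both replicates of each group. This pair was chosen with these values known, and each of its genes reached the minimum level through 1 group only. Its place among the pairs is therefore a description and not support for the difference.

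**Figure D3:**
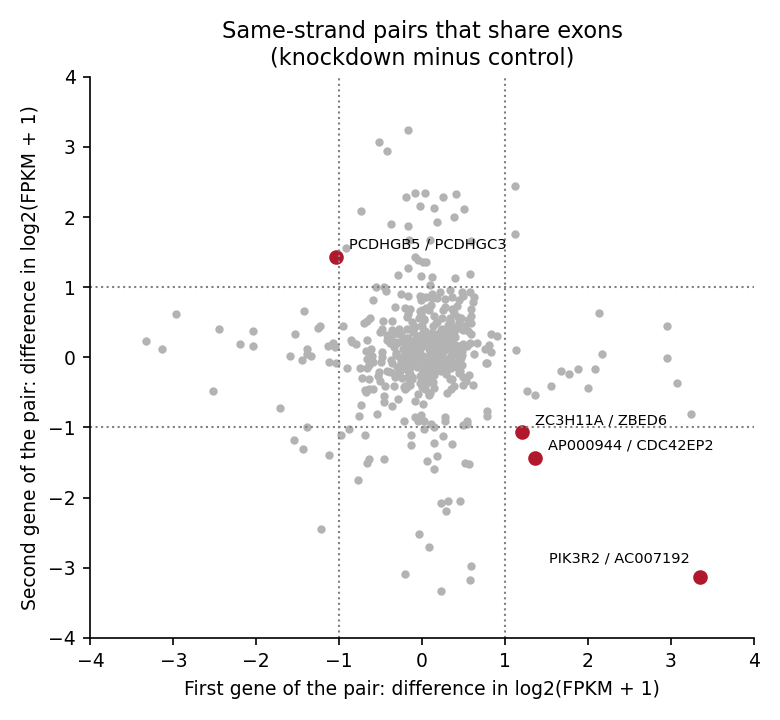
Difference in log2(FPKM + 1), knockdown minus control, of both genes in each of 526 same-strand pairs with shared exons (points), with dotted lines at 1 and -1. Red points are the 4 pairs past these lines in opposite directions, and the PIK3R2 pair lies at 3.35 and -3.13.

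PIK3R1 (chromosome 5, 68215720 to 68301821) codes for the alpha subunit and its shorter forms, and had 1.74 and 1.85 FPKM in knockdown libraries, against 1.44 and 1.04 FPKM in control libraries. Knockdown libraries were higher without overlap, at a ratio of 1.45, or 0.32 on the log2(FPKM + 1) scale, which was 0.20 without control replicate 2. PIK3R3 (chromosome 1, 46040140 to 46133036) codes for the gamma subunit, and had 5.11 and 4.63 FPKM in knockdown libraries, against 5.31 and 5.67 FPKM in control libraries. It was lower without overlap, with a difference of -0.15 on the log2(FPKM + 1) scale and -0.09 without knockdown replicate 2. PIK3R1 and PIK3R3 together gave 6.85 and 6.48 FPKM in knockdown libraries, against 6.75 and 6.71 FPKM in control libraries, and the groups overlapped.

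**Figure D4:**
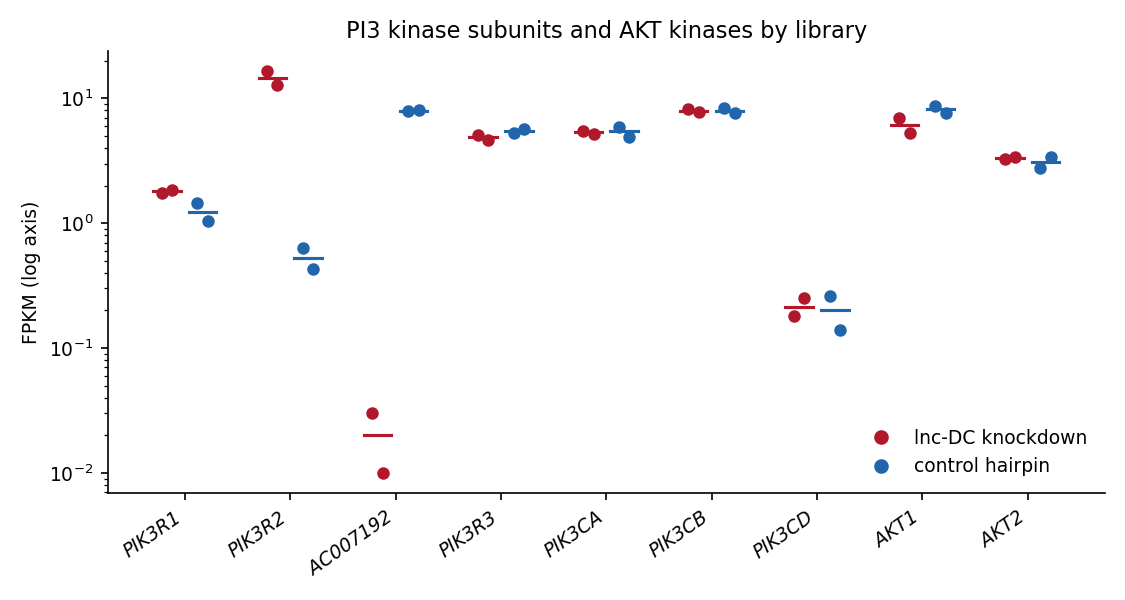
FPKM of each gene in each library on a log axis, with knockdown in red and control in blue (points are libraries, lines are means of 2). PIK3R2 and AC007192 are displaced in opposite directions, while PIK3CA, PIK3CB, PIK3CD and AKT2 overlap between groups.

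The catalytic subunits differed between groups by less than the spread between replicates. PIK3CB (chromosome 3, 138652699 to 138834938), the beta catalytic subunit, had 8.15 and 7.75 FPKM in knockdown libraries, against 8.30 and 7.56 FPKM in control libraries. PIK3CA (chromosome 3, 179148114 to 179240093), the alpha catalytic subunit and a frequent site of activating mutations in cancer, had 5.48 and 5.19 FPKM in knockdown libraries, against 5.94 and 4.93 FPKM in control libraries. For both genes the control values lay on either side of the knockdown values. PIK3CD (chromosome 1, 9651732 to 9729114), the delta subunit best known from leukocytes, did not exceed 0.26 FPKM in any library and so fell short of the level needed for testing. PIK3CB made up 59.0% and 58.8% of the catalytic FPKM in knockdown libraries, against 57.2% and 59.9% in control libraries, so the make-up of the catalytic pool was alike.

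Set against the catalytic pool, the level of the regulatory genes depended on whether the read-through was counted. The ratio of summed regulatory to summed catalytic FPKM, which a common factor on a whole library cannot move, was 1.70 and 1.46 in knockdown libraries, against 0.509 and 0.565 in control libraries. With AC007192 counted as regulatory, since it carries the PIK3R2 coding sequence, the ratio was 1.70 and 1.46 in knockdown libraries, against 1.05 and 1.20 in control libraries. Without PIK3R2 and AC007192 it was 0.496 and 0.491 in knockdown libraries, against 0.466 and 0.531 in control libraries, and the groups overlapped. These are ratios of RNA levels and not of protein, and the read-through transcript is classed as a target of nonsense-mediated decay.

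AKT1 (chromosome 14, 104769349 to 104795751), the most widely expressed AKT kinase, had 6.96 and 5.26 FPKM in knockdown libraries, against 8.63 and 7.68 FPKM in control libraries. Both knockdown libraries were lower, at a ratio of 0.749, or -0.37 on the log2(FPKM + 1) scale, which was -0.20 without knockdown replicate 2 and -0.55 without knockdown replicate 1. AKT2 (chromosome 19, 40230317 to 40285536), the isoform known for insulin-stimulated glucose uptake, had 3.28 and 3.42 FPKM in knockdown libraries, against 2.79 and 3.42 FPKM in control libraries, and the groups overlapped.

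The order of levels turned on the same pair. In knockdown libraries PIK3R2 was the highest member at 14.7 ± 2.71 FPKM (SD, n = 2), followed by PIK3CB at 7.95 ± 0.283, AKT1 at 6.11 ± 1.20, PIK3CA at 5.34 ± 0.205 and PIK3R3 at 4.87 ± 0.339 FPKM. Of these neighbours AKT1 and PIK3CA overlapped. In control libraries AKT1 (8.16 ± 0.672 FPKM), AC007192 (7.96 ± 0.134) and PIK3CB (7.93 ± 0.523) overlapped at the top, and PIK3R3 (5.49 ± 0.255) overlapped with PIK3CA (5.44 ± 0.714). AKT2 and PIK3R1 came next in that order in both groups, each apart from its neighbours, and PIK3R2 was second to last in control libraries at 0.530 ± 0.141 FPKM.

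Other members share exons with neighbours as well. AL358075.4, on the strand of PIK3R3, shares 17.4% of the exonic bases of PIK3R3 and was listed at 0 in all 4 libraries. KCNMB3, a potassium channel subunit gene on the strand opposite to PIK3CA, shares 35.8% of the exonic bases of PIK3CA and did not exceed 0.68 FPKM. CLSTN1, opposite to PIK3CD, had 23.3 to 29.3 FPKM and shares only 89 bases with it. An antisense transcript of AKT1 was listed at 0 in every library. The library kit marks strand, but the strand setting of the counting is not given in the sources used here.

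Across the table, limma called 31 of 12411 genes at an adjusted p under 0.05 (Benjamini-Hochberg), or 0.250%. PIK3R2 and AC007192 are 2 of these 31, and the other 6 members that reached the minimum level are not. The members were chosen with these differences known, so the count is a description and not a test of them. PIK3R2 is 1 of 14 called higher (0.113%) and AC007192 1 of 17 called lower (0.137%). Fits on 3 libraries, whichever was omitted, called 0 genes. The groups did not overlap for 5 of 8 members, against 54.8% of all genes tested. The 6 members other than this pair all differed by under 0.5 in size on the log2(FPKM + 1) scale, as did 84.2% of all genes. The 5 genes with the profile nearest to PIK3R2 over the 4 libraries, by Euclidean distance between centred log2(FPKM + 1) values, were HSPA1A, an inducible chaperone (distance 0.30), MT-TF, NKRF, SNORA58B and ARPIN-AP3S2 (1.01 to 1.11). PIK3R2 had the highest difference of all genes tested, so the profiles nearest to it had to be those of raised genes. Their differences were 2.33 to 3.34, and they are a description only. ARPIN-AP3S2 is also the name of a read-through model, but it was higher in the knockdown, unlike AC007192. It had 10.44 and 13.05 FPKM in knockdown libraries, against 0 and 1.28 FPKM in control libraries.

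The rest of the pathway was followed in 6 lists of 113 genes, of which 93 were tested. None was called by limma over all genes, and unadjusted p was under 0.05 for 23 of 93 (24.7%), against 22.8% of all genes tested. Of these 23 genes 16 were higher and 7 lower in the knockdown, against 1834 higher and 993 lower among all genes with such a p. The median difference over the 93 genes was 0.10 on the log2(FPKM + 1) scale, against 0.09 over all genes. The same count was made for the PI3K-Akt signalling genes of KEGG, as annotated in the deposited table, a list taken up after the table was seen. Of its 345 genes outside the members 175 were tested, none was called, 48 (27.4%) had an unadjusted p under 0.05, and the median was 0.04.

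**Figure D5:**
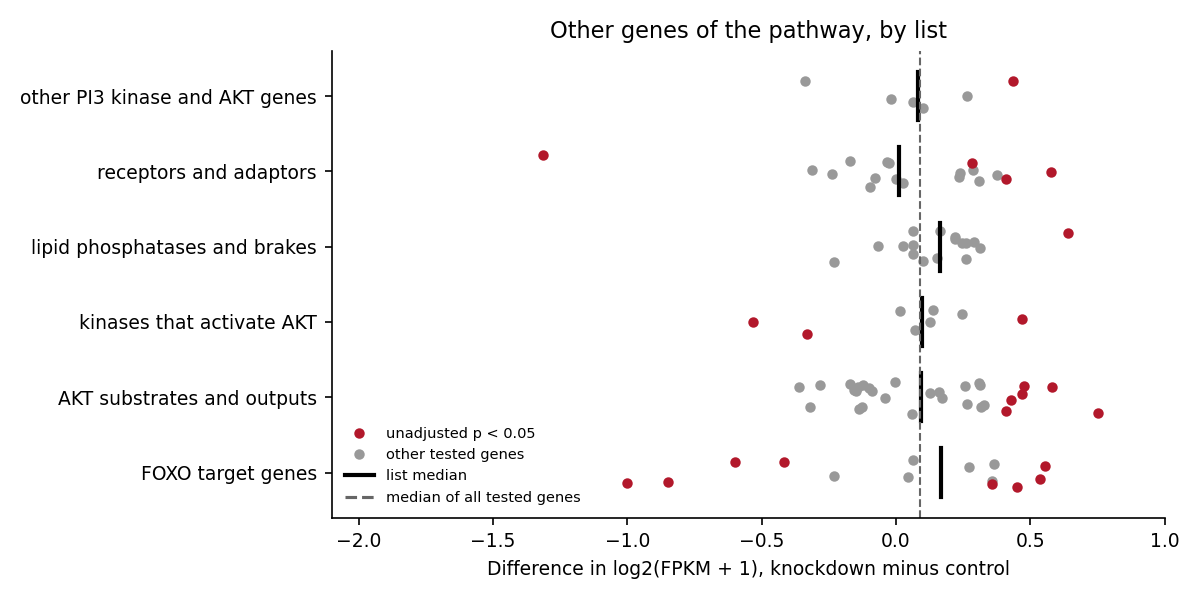
Difference in log2(FPKM + 1), knockdown minus control, of 93 tested pathway genes in 6 lists (points), with list medians (bars) and the median of all tested genes at 0.09 (dashed line). Red points have an unadjusted p under 0.05, and none passed adjustment over all genes.

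In the list of receptors and adaptors, only some of which recruit PI3 kinase to the membrane, 18 of 21 genes were tested. Of these 9 lay above and 9 below 0, against 7617 above and 4794 below over all genes tested. EGFR had 69.87 and 59.22 FPKM in knockdown libraries, against 85.66 and 61.35 FPKM in control libraries, and the groups overlapped. The insulin receptor adaptor IRS2 had 2.16 and 1.66 FPKM in knockdown libraries, against 1.68 and 1.27 FPKM in control libraries, again with overlap. IRS1 and the insulin receptor INSR did not exceed 0.63 FPKM in any library. RRAS, a small GTPase that can bind the catalytic subunit, came nearest to the threshold. RRAS had 5.35 and 5.27 FPKM in knockdown libraries, against 13.56 and 15.89 FPKM in control libraries, a difference of -1.31 ± 0.124 (SE) on the log2(FPKM + 1) scale (limma adjusted p = 0.0533, between 0.0391 and 0.255 under the alternatives). NRAS (16.9 ± 0.120 FPKM in knockdown and 11.0 ± 1.12 FPKM in control libraries, SD, n = 2 each), the receptor MET and the ubiquitin ligase gene CBLB were higher in both knockdown libraries, with limma adjusted p between 0.105 and 0.213.

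In the list labelled lipid phosphatases and brakes 15 of 17 tested genes lay above 0, with a median of 0.16, against 7617 of 12411 over all genes tested. The label does not hold for every gene in it, PTPN11 and TRIB2 among them, so this is not a count of brakes. Of the 17 genes 1 (5.88%) had an unadjusted p under 0.05, against 22.8% of all genes, and limma called none. PPP2R2A, a regulatory subunit of the phosphatase PP2A, which acts on AKT, had 9.71 ± 0.184 FPKM in knockdown and 5.93 ± 1.19 FPKM in control libraries (n = 2 each, limma adjusted p = 0.121). PPP2CA, PTPN11 and TRIB2 had ratios of 1.20, 1.23 and 1.40, with adjusted p between 0.237 and 0.253, and the log2(FPKM + 1) difference of PTPN11 was 0.29 with all libraries and 0.18 without control replicate 2.

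Of 8 tested genes for the activation of AKT, PDPK1, the kinase of its activation loop, had 6.97 and 3.80 FPKM in knockdown libraries, against 4.99 and 4.29 FPKM in control libraries. Its control values lay between those of the knockdown. MTOR, the kinase of both mTOR complexes, had 8.65 and 8.06 FPKM in knockdown libraries, against 6.38 and 5.18 FPKM in control libraries (limma adjusted p = 0.152). TTI1, a cofactor in the assembly of mTOR complexes, had 12.7 ± 1.53 FPKM in knockdown and 18.8 ± 0.898 FPKM in control libraries (n = 2 each, adjusted p = 0.119), whereas its partner TELO2 overlapped between groups. ILK, a pseudokinase of integrin adhesions, had a ratio of 0.786 (adjusted p = 0.182).

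Among substrates and outputs of AKT 30 of 32 genes were tested. Of these 16 lay above and 14 below 0, against 7617 above and 4794 below over all genes tested. The 4 with the smallest p were ACLY, which makes acetyl-CoA for lipid synthesis, CHUK, a kinase of the NF-kappaB pathway, GSK3A, the alpha form of glycogen synthase kinase, and SGK3, a kinase related to AKT. ACLY had 71.71 and 67.94 FPKM in knockdown libraries, against 50.81 and 49.43 FPKM in control libraries (limma adjusted p = 0.112). CHUK, GSK3A and SGK3 had ratios of 1.75, 1.58 and 1.58, with adjusted p between 0.112 and 0.133. The transcription factor genes FOXO1 and FOXO3, whose proteins AKT keeps out of the nucleus, had ratios of 0.911 and 0.769 (adjusted p = 0.785 and 0.297). On the log2(FPKM + 1) scale FOXO1 differed by -0.10 with all libraries but by 0.11 without control replicate 1 and 0.04 without knockdown replicate 2. FOXO3 differed by -0.32 with all libraries, by -0.15 without control replicate 1 and by -0.50 without control replicate 2.

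Genes known as targets of FOXO factors lay on both sides of 0, 9 above and 5 below, against 7617 and 4794 over all genes tested. Their median was 0.17, against 0.09 over all genes tested. Of 14 tested, 8 (57.1%) had an unadjusted p under 0.05, against 22.8% of all genes, with 4 higher and 4 lower in the knockdown. None was called over all genes. The lists were chosen with earlier results of these data known, so this share is a description and not support for a change. DEPP1, a regulator of autophagy, had 0.51 and 0.28 FPKM in knockdown libraries, against 1.84 and 1.72 FPKM in control libraries (limma adjusted p = 0.0894), and reached the minimum level through the control only. TXNIP, an inhibitor of thioredoxin, had 4.86 and 4.71 FPKM in knockdown libraries, against 8.13 and 10.89 FPKM in control libraries (adjusted p = 0.10). The repressor gene BCL6 was lower too, at a ratio of 0.570 (adjusted p = 0.116). CAT, the gene of catalase, had 18.52 and 21.43 FPKM in knockdown libraries, against 12.89 and 13.58 FPKM in control libraries (adjusted p = 0.111).

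Outside class I, the vacuolar sorting branch of PI3 kinase was measured by its catalytic gene PIK3C3, at 2.62 and 2.74 FPKM in knockdown libraries, against 2.47 and 2.40 FPKM in control libraries. PIK3R4, its regulatory subunit gene, had 16.90 and 15.40 FPKM in knockdown libraries, against 12.26 and 11.12 FPKM in control libraries, without overlap (limma adjusted p = 0.137). The class II genes PIK3C2A and PIK3C2B had ratios of 1.17 and 0.739 (adjusted p = 0.635 and 0.331). On the log2(FPKM + 1) scale PIK3C2A differed by 0.26 with all libraries, by -0.15 without control replicate 2 and by 0.68 without control replicate 1, and its direction thus rests on 1 library. PIK3C2B differed by -0.34 with all libraries, by -0.17 without control replicate 1 and by -0.22 without knockdown replicate 2. The leukocyte genes PIK3CG, PIK3R5 and PIK3R6 did not exceed 0.02 FPKM.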

How the data were processed

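RNA-seq was done on 2 knockdown and 2 control cultures of HaCaT cells. Per the labels' protocols, mRNA from 5 µg of total RNA was selected with oligo(dT), made into strand-marked libraries by the dUTP method and read in pairs of 150 bases. The submitters' processing notes name edgeR, DESeq2, StringTie 1.3.4d, HISAT2 2.0.4 and cutadapt 1.9 without their roles. Genome build, annotation and the treatment of reads that fit several models: not given in the sources used here. The authors deposited 1 FPKM value per gene and library, with 2 decimals, together with a fold (ratio) of group means and its log2 value. FPKM divides by length and by the library total, and the division of reads between overlapping models cannot be read from it.

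GENCODE 29 (GRCh38) holds 58552 of the 58825 gene IDs and gave positions, lengths and exon overlaps. Values were transformed as log2(FPKM + 1). Genes averaging 1 FPKM or more in either group (12411) were fitted in R 4.3.3 by limma 3.58.1, with group as the only term and a mean-variance trend (two-sided, Benjamini-Hochberg over all genes, threshold 0.05). With 2 libraries against 2 limma borrows its estimate of spread from all genes, so p-values speak for the spread among these libraries alone. The members and lists were chosen with earlier results of these data known. In each list the 4 tested genes with the smallest p were named, with a fixed set of core genes (some of them not reported here), every gene that shares exons with a member, and the 5 profiles nearest to PIK3R2. The 3 other opposed pairs, CD14, CDH5, KRT14 and KRT17, and the PI3 kinase genes at or near 0 were named after their values were seen. A second row named SOD2 was left out. Alternatives were another pseudocount, other filters, 3 scalings, a robust fit, a replicate block and each library left out. There were 0 columns without a sample.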

Additional observations from a re-analysis of the deposited data

How the results depend on the processing

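The values of PIK3R2 and AC007192 kept their directions under every scaling, pseudocount and left-out library. With 0.1 added in place of 1 they differed by 4.56 and -6.07 on the log2 scale, and AC007192 by -3.20 under quantile normalization and -3.21 under median centring. Leaving out 1 library gave 3.17 to 3.53 for PIK3R2, -3.15 to -3.12 for AC007192 and 0.54 to 0.89 for the log2 difference of their sum, which was 0.72 with all 4. Further weightings of the sum were added after the data were seen: by the longest transcript it differed by 0.44, and by 0.25 with IFI30 included. The scalings turned the sign of PIK3CB and PIK3CD, whose differences stay near 0, and of no other member. Opposed overlapping pairs numbered 4 at a limit of 1, 1 at a limit of 2 and 10 with 0.1 added. Those whose sum differed by under 0.5 on the log2 scale numbered 2, 0 and 5. The PIK3R2 pair was in none of these counts, since its sum differed by 0.72, or by 0.77 with 0.1 added.

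Over all genes 31 were called. The count was 58 with a filter of 5 FPKM, 57 under quantile normalization (17 higher and 40 lower, in place of 14 and 17), 0 with no filter (3876 with unadjusted p under 0.05), and 0 to 0 when a library was left out (1797 to 2251), where a lone library is assumed to vary like the other group. With the replicate number as a block, 0 genes were called (3791 with unadjusted p under 0.05) and 0 pathway genes, and same-numbered libraries deviated together at a correlation of 0.12 over genes. The labels do not say that the numbers pair cultures. Of the pathway genes 0 were called, 1 with a filter of 5 FPKM (RRAS, adjusted p = 0.0391) and 1 under quantile normalization (RRAS, 0.0483). No other named pathway gene passed in any setting. Leaving out a library left 0 to 0 pathway genes called and moved the median over the lists between 0.02 and 0.20. The median of AKT substrates, 0.09 with all libraries, moved between -0.00451 (without control replicate 2) and 0.17 (without knockdown replicate 2). That of FOXO targets was 0.17 in the main fit and changed sign to -0.0934 with the filter of 5 FPKM. The depth of these FPKM values is unknown, which limits statements on genes near 0.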
